A study of Mus musculus with 12 samples.

Results

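The genes described here make up the unfolded protein response and the early secretory pathway of the mouse prostate: folding factors of the endoplasmic reticulum (ER), the sensors and transcription factors that govern them, and the machinery for import, disposal and export of secretory proteins. The list holds 50 genes. A gene was measured where a probe set (a group of short probes read as 1 signal) is annotated to its symbol alone, and the brightest such probe set over the 12 arrays was used. This gave 49 of the 50 members, among 18194 genes in all. Sec61g has only a probe set shared with other genes and was left out.

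Total RNA was measured on Affymetrix arrays in 4 groups of 3 arrays: ventral prostate of wild-type mice, ventral prostate of Med1 knockout mice, lateral prostate of wild-type mice and lateral prostate of Med1 knockout mice, all 16 weeks old. Med1 is a subunit of Mediator, the complex through which DNA-bound regulators reach the polymerase at a promoter. How Med1 was deleted, in which cells and on which strain is not stated here, nor is any pooling. Nothing states that each array had its own animal. The p-values reflect the spread of arrays within groups, pooled over the 4 groups and moderated across genes, and that spread may be technical. Signals are log2 values of robust multi-array averaging (RMA), so a difference of 1 is a doubling, and they are not compared between genes.

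Secretory cells push most of what they make through the ER. Signal sequences bring new chains to the Sec61 channel, chaperones and disulfide isomerases fold them, and COPII vesicles carry them on, while chains that fail to fold are passed back to the cytosol for destruction (ER-associated degradation, ERAD). The sensors IRE1, PERK and ATF6 respond to unfolded chains and, through the factors XBP1, ATF4 and cleaved ATF6, raise transcription of chaperone and ERAD genes. The prostate is a secretory gland, and its luminal epithelial cells rely on this machinery.

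Many of these genes carry the ER stress response element (ERSE), the site through which ATF6 and XBP1 act together with NF-Y. Exact matches to its letters, CCAAT and CCACG with 9 unspecified bases between them, were looked for on both strands in RefSeq promoter windows of GRCm38.p6 that reach from 250 bases before to 50 bases after the annotated start. Windows were found for 41 of the 50 listed members. An ERSE lay in the windows of 8 of these 41 genes (19.5%), against 0.137% of all 27025 genes with a window and 0.119% of all 32851 windows. The shorter ERSE-II, ATTGG and CCACG with 1 base between them, lay in 2 of 41 (4.88%, against 0.0444% of all genes). The UPRE core TGACGTGG was found in Sec24d alone (2.44% of members, 0.714% of all genes), and the amino acid response site TGATGCAAT in 0 of 41 (0.222% of all genes). The members were listed for their part in this response and in secretion, so these shares describe the list and test nothing. No member window held more than 1 kind of match, and a match is a run of letters, not a measured binding site.

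The matches of 7 members are shown with 20 bases on either side, and those of Dnajb11, Hsp90b1 and Pdia6 are described after them. Capitals mark the fixed letters of the ERSE or ERSE-II, which read CGTGG and ATTGG where the match is on the opposite strand. The stretches lie at chr10:75893222-75893280 (+ strand) for Derl3, chr8:94386357-94386407 (+ strand) for Herpud1, chr19:6046512-6046570 (+ strand) for Syvn1, chr2:34772005-34772063 (+ strand) for Hspa5, chr8:84847055-84847113 (- strand) for Calr, chr14:118937807-118937865 (+ strand) for Dnajc3 and chr11:50325780-50325838 (- strand) for Canx, all before the annotated start of the gene and written 5′ to 3′ on the gene's strand.
Derl3: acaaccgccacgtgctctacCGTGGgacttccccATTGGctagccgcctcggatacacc
Herpud1: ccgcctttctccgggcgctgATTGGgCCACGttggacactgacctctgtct
Syvn1: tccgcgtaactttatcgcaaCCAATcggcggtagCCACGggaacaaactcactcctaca
Hspa5: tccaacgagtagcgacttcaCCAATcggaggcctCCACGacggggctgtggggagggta
Calr: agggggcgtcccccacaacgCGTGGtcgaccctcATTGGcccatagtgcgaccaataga
Dnajc3: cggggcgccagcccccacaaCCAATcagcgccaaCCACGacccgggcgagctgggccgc
Canx: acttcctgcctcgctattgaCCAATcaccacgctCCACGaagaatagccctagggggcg
The ERSE of Derl3 and that of Calr are in the reverse direction, and Herpud1 holds the short form. Dnajb11 has the short form, ATTGGCCCACG, beginning 7 bases after its start. Hsp90b1 has 2 ERSE matches, 1 on each strand, and Pdia6 has 1.

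**Figure D1:**
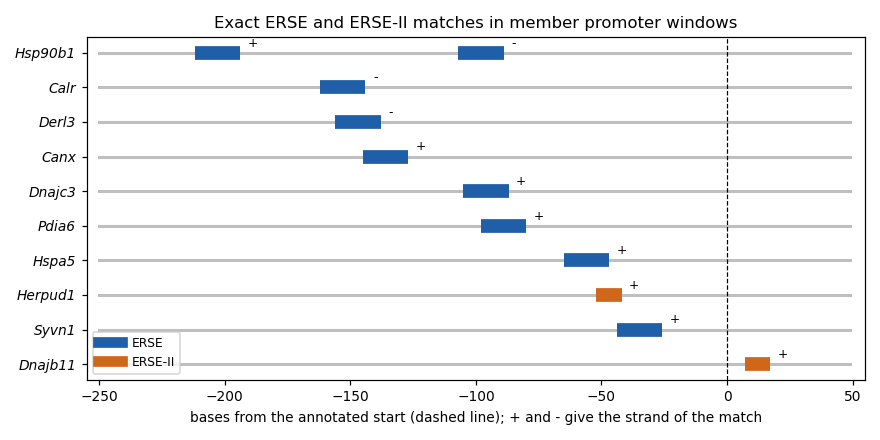
Position of each exact ERSE (blue) and ERSE-II (orange) match in the promoter windows of 10 members, in bases from the annotated start, with the strand of the match. Of the 10 genes, 9 have their matches before the start and Dnajb11 has its match after it.

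Before the members are described, the labels and arrays were checked. Med1 read 9.48, 9.52 and 9.29 in ventral wild-type arrays and 8.90, 8.99 and 8.68 in ventral knockout arrays, a difference of -0.57 ± 0.12 (SE; limma adjusted p = 0.0119). Leaving out ventral knockout array 3 lost this call (adjusted p = 0.0518). Dimmer probe sets of Med1 fell too (-0.48, -0.64 and -0.70, limma adjusted p = 0.0162, 0.00342 and 0.0121 over all probe sets), while others did not pass (-0.25, -0.40 and -0.10). Lateral Med1 read 8.58, 8.74 and 8.23 in wild type and 8.40, 8.34 and 8.44 in the arrays labelled knockout (-0.13 ± 0.12, limma adjusted p = 0.622), so these arrays are called labelled knockout throughout and directions drawn from them rest on the label. Its dimmer probe sets differed in sign in lateral prostate (0.15, 0.44, -0.26, 0.10, -0.089 and 0.092), none past the threshold. The defining luminal genes were bright in all groups, with group means of 11.67 to 12.37 for the keratin Krt8 and 11.03 to 12.29 for the prostate homeobox gene Hoxb13. Array medians were 6.39 to 6.43 in ventral and 6.05 to 6.06 in lateral arrays. The mean signal of 6 seminal vesicle secretory genes was 5.52 in ventral wild-type array 3, against 3.81 and 3.89 in the other ventral wild-type arrays. In lateral prostate it was 11.42, 11.41 and 11.50 in wild type and 9.26, 9.09 and 7.73 in the arrays labelled knockout, so all 3 of the latter lay below wild type and array 3 lowest. Ventral wild-type array 3 and lateral array 3 labelled knockout are called the doubted arrays, and counts are also given without these arrays.

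In ventral prostate, 12 of 49 members fell in the knockout and 0 rose at an adjusted p under 0.05 (limma, Benjamini-Hochberg over all genes), where 3.2% of all genes fell and 5.88% rose. At an unadjusted p under 0.05 (limma) the members' counts were 24 lower and 0 higher. Over all 18194 genes those counts were 2100 lower and 2400 higher. The median change over the members was -0.23 log2, against -0.02 over all genes, and 47 of 49 estimates lay below 0. The ventral knockout arrays did not overlap with wild type in 30 members, lower in each and higher in 0, while 14.6% of all genes were lower and 14.9% higher without overlap. Without ventral wild-type array 3 the count of members that fell was 6, and without both that array and lateral array 3 labelled knockout it was 4 (Derl3, Creb3l4, Sdf2l1 and Agr2). Over all 18194 genes 583 fell with all arrays, 327 without ventral wild-type array 3 and 293 without both (limma). The members' median was -0.23 with both arrays left out as well. These counts rest on the brightest probe set of each gene. Of the 68 dimmer probe sets of the members, 21 fell in ventral knockout (limma, adjusted over all probe sets), against 2.61% of all dimmer probe sets, and 10 members not called by their brightest probe set had at least 1 that fell (Derl1, Dnajc3, Eif2ak3, Ern1, Hyou1, Pdia6, Sec61a1, Ssr4, Syvn1 and Trib3). The counts of dimmer probe sets were not recomputed without the doubted arrays.

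In lateral prostate, 2 of 49 members rose (Syvn1 and Herpud1) and 1 fell (Edem3) in the arrays labelled knockout, where 1.62% of all genes rose and 3.42% fell. The median change was 0.0061, against -0.0025 over all genes, and 25 estimates lay above and 24 below 0. The arrays labelled knockout were higher without overlap in 14 members and lower in 7, against 11.2% and 15.7% of all genes. At an unadjusted p under 0.05 (limma), 10 members were higher and 3 lower, where 1545 of all 18194 genes were higher and 2008 lower. Quantile normalization over all arrays gave 7 higher and 1 lower, a minimum change of 1.5-fold gave 0, and without lateral wild-type array 3, or without both doubted arrays, Syvn1 alone passed. All genes called in either direction were 5.1%, 2.32%, 2.74% and 3.2% in these fits, against 5.03% as reported. Of the 68 dimmer probe sets 5 rose (limma), against 1.03% of all dimmer probe sets, among them 1 each of Ddit3, Ern1 and Hspa5, which were not called by their brightest.

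The genotype difference was not the same in the lobes for 16 of 49 members by a test of the difference itself. In each of the 16 the ventral change lay below the lateral change, and in 0 members above it, against 2.8% and 6.51% of all genes (limma). At an unadjusted p under 0.05 (limma), 24 members were lower and 1 higher. Over all 18194 genes those counts were 2072 lower and 2563 higher. Of the 16, the estimate was negative in ventral and positive in lateral prostate for 15, with Creb3l4 the exception. Of the 16, 6 passed in neither lobe taken alone. The count was 10 without ventral wild-type array 3, 8 without lateral wild-type array 3, 10 without lateral array 3 labelled knockout and 4 (Derl3, Sdf2l1, Sel1l and Herpud1) without both doubted arrays. All genes called in either direction were 6.35%, 6.06%, 7.11% and 5.35% in these fits, against 9.31% as reported. These counts too rest on the brightest probe sets. Among the 68 dimmer probe sets of the members, the ventral change lay below the lateral change in 21 and above it in 0 (limma). The shares over all dimmer probe sets were 1.96% and 4.52%. Members with such a dimmer probe set that were not among the 16 were Dnajc3, Eif2ak3, Ern1, Pdia6, Sec61a1 and Ssr4. A member that did not pass is not shown to change alike in the lobes.

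**Figure D2:**
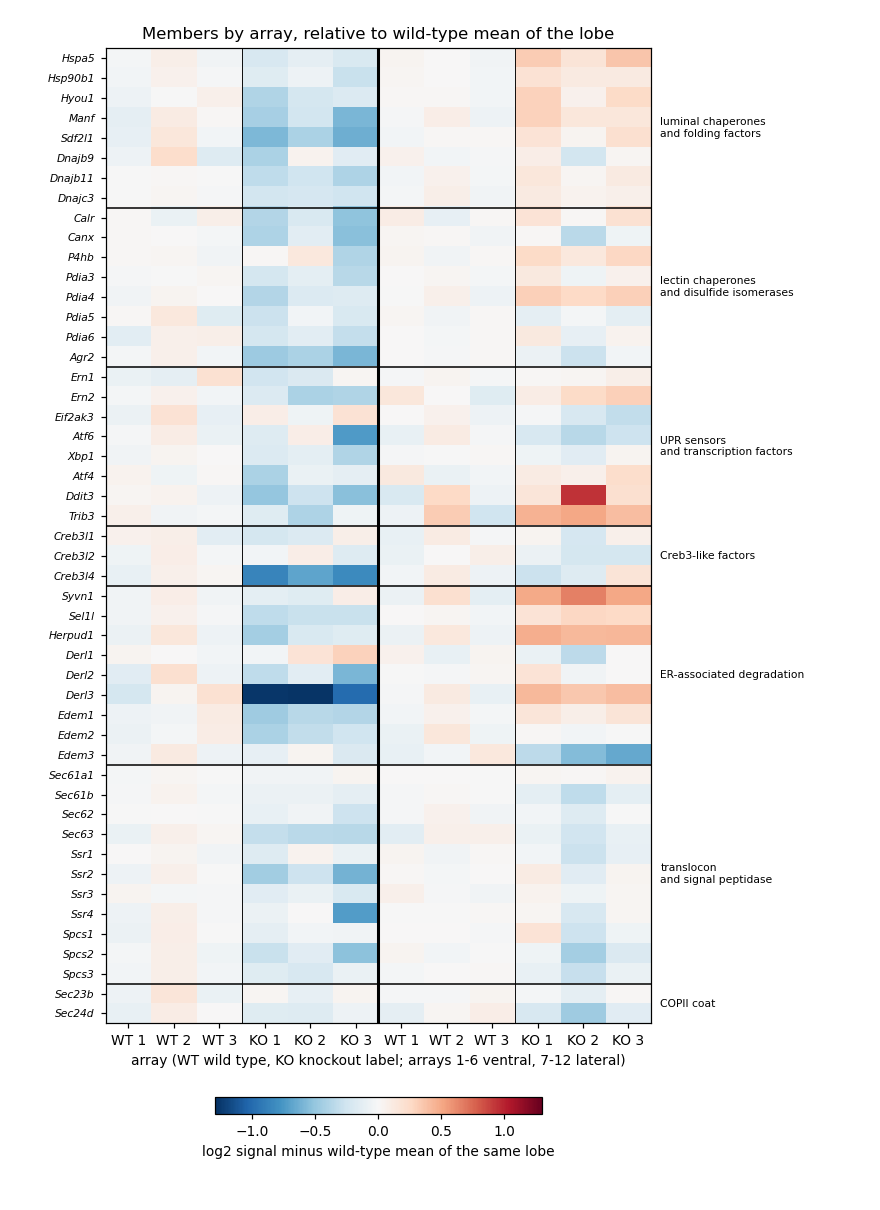
Signal of the 49 members (rows, by role) in each of 12 arrays (columns), as the log2 difference from the wild-type mean of the same lobe, with blue lower and red higher. In the 3 ventral knockout arrays 46, 41 and 42 of 49 members lie below the wild-type mean, while in the 3 lateral arrays labelled knockout 32, 21 and 33 lie above it. Single wild-type arrays are lopsided too: 38, 9 and 34 members lie below their own mean in ventral wild type. In lateral wild type 22, 32 and 18 lie above it, so such counts vary between arrays of 1 genotype.

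The luminal chaperones and their partners were examined first. Of 8 members 3 fell in ventral knockout and 0 rose, with a median change of -0.25, and 0 of 8 passed in the lateral lobe (2 higher and 0 lower at an unadjusted p under 0.05 by limma), with a median of 0.14. For 5 of the 8 the lobes differed. Without both doubted arrays 1 fell in ventral prostate and the lobes differed for 1, Sdf2l1 in each case.

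Sdf2l1, a partner of BiP that restrains protein aggregation, read 10.86, 11.10 and 10.92 in ventral wild type and 10.38, 10.55 and 10.32 in ventral knockout. In the lateral lobe it read 11.21, 11.26 and 11.26 in wild type and 11.43, 11.28 and 11.45 in the arrays labelled knockout. The ventral groups stood apart, with a difference of -0.54 ± 0.093 (SE; limma adjusted p = 0.00250), and the lateral groups did not overlap either, in the other direction (0.14 ± 0.093, adjusted p = 0.434). The ventral minus the lateral change was -0.68 (adjusted p = 0.00515), and both calls held in each repeat fit.

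Manf, a secreted ER stress factor, read 11.66, 11.88 and 11.79 in ventral wild type and 11.34, 11.54 and 11.18 in ventral knockout, a difference of -0.42 ± 0.10 (limma adjusted p = 0.0194). Lateral Manf was 11.56, 11.66 and 11.51 in wild type and 11.87, 11.72 and 11.72 in the arrays labelled knockout, and the lobes differed by -0.62 (adjusted p = 0.0158). The genotypes did not overlap in either lobe, low in knockout in the ventral and high in the lateral lobe. The ventral call for Manf was lost without ventral wild-type array 2 or 3 or ventral knockout array 1 or 3. Dnajb11, a J-domain cochaperone of BiP, read 11.55, 11.56 and 11.54 in ventral wild type against 11.23, 11.29 and 11.15 in ventral knockout (-0.33 ± 0.077, limma adjusted p = 0.0165). Its lateral values, 11.08, 11.17 and 11.09 in wild type and 11.26, 11.13 and 11.22 in the arrays labelled knockout, overlapped, and the lobes differed (-0.42, adjusted p = 0.0263). Its ventral call was lost without ventral wild-type array 1 or 3, and its difference between lobes without those or lateral wild-type array 1 or 3 or lateral array 3 labelled knockout.

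Hspa5, which encodes BiP, the main chaperone of the ER lumen, showed small differences in opposite directions. It read 13.02, 13.11 and 12.99 in ventral wild type and 12.83, 12.92 and 12.84 in ventral knockout, and 12.56, 12.53 and 12.48 in lateral wild type and 12.85, 12.68 and 12.88 in the arrays labelled knockout. Neither lobe passed alone (-0.17, limma adjusted p = 0.204, and 0.28, adjusted p = 0.0639), while the difference between them did (-0.46 ± 0.11, adjusted p = 0.0245). Hyou1, the exchange factor of BiP, was alike, at -0.26 in ventral and 0.20 in lateral prostate (limma adjusted p for the difference between lobes = 0.0355). Its arrays were 11.90, 11.96 and 12.03 against 11.57, 11.74 and 11.79 in ventral and 11.80, 11.79 and 11.74 against 12.08, 11.84 and 12.03 in lateral prostate. Both lobes separated by genotype without overlap. The difference between lobes was lost for Hspa5 without ventral wild-type array 2, ventral knockout array 1, lateral wild-type array 3 or lateral array 3 labelled knockout, and for Hyou1 in 8 of the 12 fits that left out 1 array. The other probe sets of Hspa5 and Hyou1 had the same signs in each lobe. Of those of Hspa5, 1 rose in lateral prostate (0.32, limma adjusted p = 0.0458 over all probe sets), and the other 2 of Hyou1 passed as lower in ventral knockout (-0.48 and -0.66, limma adjusted p = 0.00404 and 0.00415 over all probe sets). Hsp90b1, which encodes GRP94 (-0.17 and 0.14), Dnajc3, an inhibitor of PERK and BiP cochaperone (-0.24 and 0.073), and Dnajb9 (-0.17 and -0.042) did not pass in ventral or lateral prostate by their brightest probe sets, while a dimmer probe set of Dnajc3 fell in ventral knockout (-0.61, limma adjusted p = 0.0439).

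Among the lectin chaperones and disulfide isomerases, 2 of 8 fell in ventral knockout, 0 rose and the median was -0.24. In the lateral lobe 0 of 8 passed (limma, 1 higher and 0 lower at an unadjusted p under 0.05; median 0.035). Agr2, an isomerase needed for mucin production, read 12.63, 12.72 and 12.62 in ventral wild type and 12.19, 12.24 and 12.06 in knockout (-0.49 ± 0.087, limma adjusted p = 0.00310). Lateral Agr2 was 12.71, 12.70 and 12.73 in wild type and 12.64, 12.43 and 12.68 in the arrays labelled knockout, lower without overlap but not past the threshold (-0.13 ± 0.087, adjusted p = 0.448). It is thus a member with the same sign in both lobes, and the test between lobes did not pass (adjusted p = 0.0817).

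Calr, the lectin chaperone calreticulin, read 12.71, 12.62 and 12.78 in ventral wild type and 12.32, 12.50 and 12.18 in ventral knockout (-0.37 ± 0.10, limma adjusted p = 0.0325), and its other 2 probe sets passed as lower too. In lateral prostate it read 12.70, 12.51 and 12.62 in wild type and 12.79, 12.63 and 12.81 in the arrays labelled knockout, which overlapped. The call for Calr was lost without ventral wild-type array 1 or 3 or ventral knockout array 1 or 3, with the replicate block and with the ventral arrays alone. Its lobes differed (-0.50, adjusted p = 0.0392), a call lost in 8 of the 12 fits that left out 1 array. Pdia4, a disulfide isomerase, passed only for the difference between lobes (-0.54 ± 0.12, limma adjusted p = 0.0108). It read 10.46, 10.54 and 10.51 in ventral wild type against 10.12, 10.33 and 10.34 in knockout, and 10.70, 10.77 and 10.64 in lateral wild type against 11.02, 10.97 and 11.01 in the arrays labelled knockout, apart in both lobes and in opposite directions. Canx, the membrane-bound partner of calreticulin, was at -0.36 and -0.13. The isomerases P4hb (-0.079 and 0.21), Pdia3 (-0.24 and 0.044), Pdia5 (-0.17 and -0.093) and Pdia6 (-0.22 and 0.026) did not pass in the ventral or the lateral lobe by their brightest probe sets. The dimmer probe set of Pdia6 fell in ventral knockout (-1.05, limma adjusted p = 6.3e-05 over all probe sets), and the lobes differed for it (-1.05, adjusted p = 0.00088).

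By their brightest probe sets, the sensors and factors of the main UPR arms passed in neither lobe taken alone, while dimmer probe sets of 4 of them did. Of 8 members 0 passed in ventral prostate (limma, 0 higher and 3 lower at an unadjusted p under 0.05) and 0 in lateral prostate (3 higher and 0 lower). The kinase and RNase Ern1, which encodes IRE1 alpha, was at -0.14 in ventral and 0.041 in lateral prostate by its brightest probe set. Of its 4 dimmer probe sets, 3 fell in ventral knockout (-0.59, -0.51 and -0.50, limma adjusted p = 0.00991, 0.0158 and 0.00282 over all probe sets). The dimmest of these also rose in lateral prostate (0.56, limma adjusted p = 0.00136), and the lobes differed for it (-1.06, adjusted p = 0.00014). All probe sets of Ern1 were negative in ventral and positive in lateral prostate, and they differ in size and in whether they passed. The kinase Eif2ak3 (PERK) was at 0.072 and -0.18 by its brightest probe set, while a dimmer one fell in ventral knockout (-0.31, limma adjusted p = 0.0410). Atf6 was at -0.27 and -0.28. Xbp1 was at -0.23 (adjusted p = 0.115) and -0.057, and its ventral knockout arrays, 11.25, 11.30 and 11.04, lay below the wild-type arrays, 11.38, 11.47 and 11.44. The signal was not split into spliced and unspliced Xbp1, and arrays do not show the cleavage of ATF6 or the phosphorylation of PERK.

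Atf4, the factor translated when PERK is active, was at -0.20 and 0.13. Its target Ddit3 (CHOP), a factor tied to cell death, read 8.91, 8.93 and 8.82 in ventral wild type against 8.38, 8.62 and 8.35 in knockout, and 8.87, 9.32 and 8.99 in lateral wild type against 9.21, 10.01 and 9.27 in the arrays labelled knockout. The ventral groups did not overlap, the lateral groups did, and lateral array 2 labelled knockout was the highest of the 12. Trib3, a pseudokinase induced through CHOP, read 7.50, 7.39 and 7.41 against 7.27, 7.03 and 7.37 in ventral and 7.31, 7.71 and 7.11 against 7.83, 7.88 and 7.78 in lateral prostate, lower and higher without overlap. By their brightest probe sets both passed only for the difference between the lobes (-0.87 ± 0.25 for Ddit3 and -0.66 ± 0.19 for Trib3; limma adjusted p = 0.0449 and 0.0407), calls lost in 8 (Ddit3) and 10 (Trib3) of the 12 fits that left out 1 array. The dimmer probe set of Ddit3 rose in lateral prostate (0.84, limma adjusted p = 0.00493 over all probe sets), and that of Trib3 fell in ventral knockout (-0.41, limma adjusted p = 0.0356). Ern2, the epithelial IRE1 beta, was dim, at 5.66, 5.74 and 5.64 against 5.50, 5.27 and 5.29 in ventral and 5.39, 5.24 and 5.08 against 5.34, 5.49 and 5.55 in lateral prostate. It too passed only for the difference between lobes (-0.55 ± 0.14, adjusted p = 0.0283) and lost that call in 9 of the 12 fits that left out 1 array.

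Of the Creb3-like factors, membrane-bound regulators of secretory capacity that are released by cleavage in the Golgi, 1 of 3 fell in ventral knockout, Creb3l4, which is known for its expression in prostate. Its 3 ventral wild-type arrays read 9.24, 9.40 and 9.36 and its ventral knockout arrays 8.48, 8.65 and 8.50. In lateral prostate it read 7.21, 7.37 and 7.18 in wild type and 6.98, 7.09 and 7.42 in the arrays labelled knockout. Ventral knockout was at 0.578 times the wild-type signal (-0.79 ± 0.11, limma adjusted p = 0.000610), while the lateral groups overlapped (-0.091 ± 0.11, adjusted p = 0.703), and the lobes differed (adjusted p = 0.0133; 0.0537 without both doubted arrays). Creb3l1 (-0.11 and -0.039) and Creb3l2 (-0.037 and -0.18) passed in neither lobe by limma.

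The member with the lowest ventral estimate (Derl3) and those with the highest and lowest lateral estimates (Syvn1 and Edem3) are all ERAD genes. In ventral knockout 4 of 9 fell and 0 rose (limma, 6 lower and 0 higher at an unadjusted p under 0.05), with a median of -0.30. In lateral prostate 2 rose and 1 fell, with a median of 0.13, and the lobes differed for 5. Without both doubted arrays 1 fell in ventral prostate (Derl3), 1 rose in lateral prostate (Syvn1), and the lobes differed for 3.

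Derl3 is a derlin, a membrane protein of the channel that returns chains to the cytosol, and is known from strongly secretory cells. It read 10.08, 10.35 and 10.50 in ventral wild type and 9.05, 9.04 and 9.31 in ventral knockout. In lateral prostate it read 10.67, 10.80 and 10.59 in wild type and 11.11, 11.04 and 11.09 in the arrays labelled knockout. All ventral knockout arrays lay below, and all lateral arrays labelled knockout above, the wild-type arrays of their lobe. Ventral knockout was at 0.442 times wild type (-1.18 ± 0.11, limma adjusted p = 2.75e-05). The lateral arrays labelled knockout were at 1.31 times wild type, which did not pass (0.39 ± 0.11, adjusted p = 0.0639), and the changes differed by -1.57 ± 0.16 (adjusted p = 4.9e-05). The related Derl1 (0.15 and -0.14) and Derl2 (-0.36 and 0.047) passed in neither lobe by their brightest probe sets. A dimmer probe set of Derl1 fell in ventral knockout (-0.40, limma adjusted p = 0.0228 over all probe sets), against the sign of the brightest.

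Syvn1 encodes HRD1, the ubiquitin ligase of ERAD, and Sel1l its adaptor. Lateral Syvn1 read 9.99, 10.27 and 9.94 in wild type and 10.56, 10.72 and 10.57 in the arrays labelled knockout, higher without overlap (0.55 ± 0.10, limma adjusted p = 0.00709). This call held in each of 21 repeat fits at the same threshold, with other settings or arrays left out (limma adjusted p at most 0.0428). At a minimum change of 1.5-fold it did not hold, since 0 members passed in lateral prostate. Ventral Syvn1 read 10.52, 10.65 and 10.52 in wild type and 10.43, 10.41 and 10.65 in knockout and overlapped (-0.064 ± 0.10, adjusted p = 0.751). Its dimmer probe set had a like rise in lateral prostate (0.55) but fell in ventral knockout (-0.47, limma adjusted p = 0.0299 over all probe sets). The probe sets thus differ on the size of the ventral change and on whether it passed. Sel1l read 11.14, 11.24 and 11.17 in ventral wild type and 10.85, 10.89 and 10.89 in ventral knockout (-0.30 ± 0.073, limma adjusted p = 0.0204), and 11.37, 11.39 and 11.33 against 11.54, 11.63 and 11.62 in lateral prostate (0.24 ± 0.073, adjusted p = 0.0847). The genotypes did not overlap in either lobe, the lobes differed (adjusted p = 0.00523), and the estimates of all 5 of its probe sets were negative in ventral and positive in lateral prostate. The ventral call for Sel1l was lost without ventral wild-type array 2 or 3 or ventral knockout array 1, and the difference between lobes for Syvn1 (-0.61, adjusted p = 0.0198) without lateral wild-type array 3 or lateral array 2 labelled knockout.

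Herpud1, which organizes the HRD1 complex, read 10.82, 11.03 and 10.82 in lateral wild type and 11.36, 11.30 and 11.32 in the arrays labelled knockout (0.44 ± 0.10, limma adjusted p = 0.0204). In ventral prostate it read 11.58, 11.79 and 11.58 in wild type and 11.21, 11.46 and 11.49 in knockout, lower without overlap but not past the threshold (-0.26 ± 0.10, adjusted p = 0.118). The lateral call was lost without lateral wild-type array 1 or 3 or any 1 of the lateral arrays labelled knockout, whereas the difference between lobes held in each of 20 repeat fits (-0.70 ± 0.14 as reported, limma adjusted p = 0.00671).

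The EDEM proteins trim mannose from glycans of misfolded chains and so mark them for disposal, and the 3 genes did not move together. Edem1 read 11.48, 11.51 and 11.66 in ventral wild type and 11.09, 11.19 and 11.16 in knockout (-0.40 ± 0.079, limma adjusted p = 0.00672), and 11.08, 11.16 and 11.08 against 11.26, 11.18 and 11.27 in lateral prostate, where the change was positive and did not pass (0.13). Edem2 also fell in ventral knockout, from 10.91, 10.95 and 11.08 to 10.57, 10.66 and 10.72 (-0.33 ± 0.087, limma adjusted p = 0.0307), with lateral values of 11.02, 11.26 and 11.05 against 11.12, 11.07 and 11.10 that overlapped. The Edem2 call was lost without any 1 of the ventral wild-type arrays or ventral knockout array 1 or 2. Edem3 was the member that fell in lateral prostate, from 8.64, 8.70 and 8.87 to 8.40, 8.18 and 8.07 (-0.52 ± 0.10, limma adjusted p = 0.00934). Its ventral values, 9.75, 9.91 and 9.74 and 9.69, 9.83 and 9.62, overlapped. The Edem3 call was lost without lateral wild-type array 3 (limma adjusted p = 0.0547). Each of these calls rests on 1 probe set. In ventral prostate the dimmer probe sets of Edem1 (-0.074) and Edem2 (-0.34) did not pass (limma adjusted p = 0.686 and 0.103 over all probe sets). In lateral prostate that of Edem3 (-0.17) did not pass either (limma adjusted p = 0.350).

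**Figure D3:**
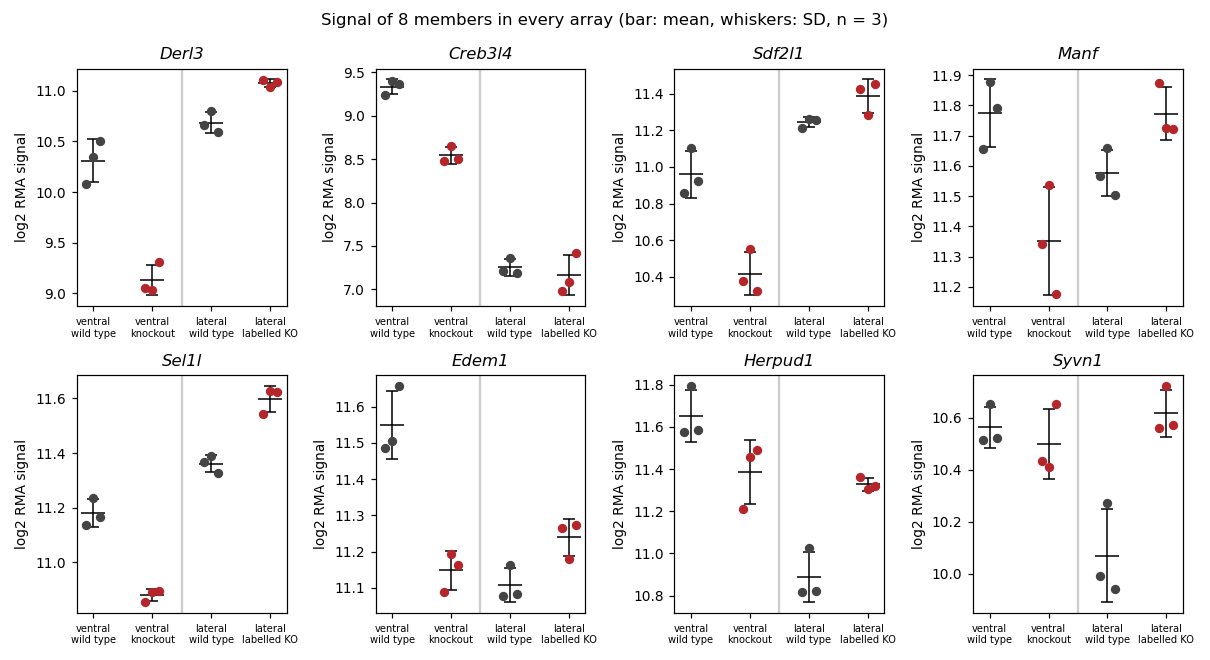
Log2 signal of 8 members in every array by group (points), with the group mean (bar) and SD (whiskers, n = 3); wild type is grey, the knockout label red, and the y axes differ. In ventral prostate the knockout points lie below wild type except for Syvn1, and in lateral prostate they lie above wild type except for Creb3l4; the 8 genes were chosen after their values were seen.

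Of 11 members of the translocon and signal peptidase, 2 fell in ventral knockout, 0 rose (limma, 3 lower and 0 higher at an unadjusted p under 0.05) and the median was -0.14. In lateral prostate 0 of 11 passed (1 lower and 0 higher at an unadjusted p under 0.05, median -0.068). By their brightest probe sets the lobes differed for 0 (1 lower and 0 higher). Ssr2, a subunit of the translocon-associated TRAP complex, read 10.70, 10.83 and 10.76 in ventral wild type and 10.31, 10.49 and 10.15 in knockout (-0.45 ± 0.10, limma adjusted p = 0.0127), with lateral values of 10.85, 10.81 and 10.84 and 10.94, 10.69 and 10.87. Sec63, a J-domain partner of the Sec61 channel, read 10.40, 10.55 and 10.51 in ventral wild type and 10.18, 10.14 and 10.12 in knockout (-0.34 ± 0.087, limma adjusted p = 0.0260). Its other 4 probe sets ranged from -0.26 to 0.33 in ventral prostate, none past the threshold, so the fall rests on 1 probe set, and it was lost without ventral wild-type array 2 or 3 or any 1 of the ventral knockout arrays. Lateral Sec63 read 10.01, 10.22 and 10.22 in wild type and 10.06, 9.90 and 10.05 in the arrays labelled knockout, and the groups overlapped. The channel subunits Sec61a1 (-0.018 and 0.028) and Sec61b (-0.089 and -0.19), Sec62 (-0.14 and -0.068), the TRAP subunits Ssr1, Ssr3 and Ssr4 (-0.26 to -0.072 in ventral, -0.14 to 0.0061 in lateral prostate) and the signal peptidase subunits Spcs1, Spcs2 and Spcs3 (-0.32 to -0.068 and -0.23 to -0.047) passed in neither lobe by their brightest probe sets. Of the 5 dimmer probe sets of Sec61a1, 3 fell in ventral knockout (-0.61, -0.67 and -0.46, limma adjusted p = 0.0262, 0.0142 and 0.00706 over all probe sets). Its probe sets were all negative in ventral prostate and differ in size and in whether they passed. A dimmer probe set of Ssr4 fell (-0.56, limma adjusted p = 0.00901). The COPII coat genes Sec23b (-0.016 and -0.042) and Sec24d (-0.13 and -0.27) did not pass either.

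**Figure D4:**
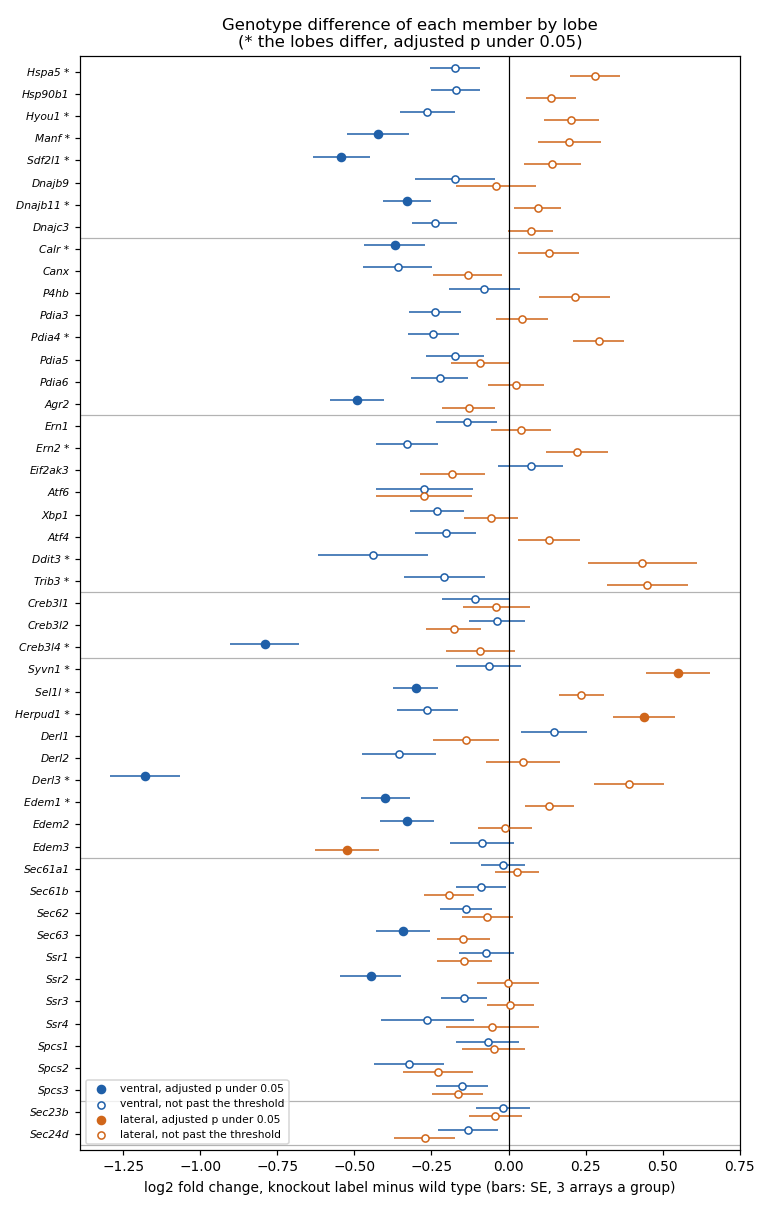
Log2 fold change of each member, knockout label minus wild type, in ventral (blue) and lateral (orange) prostate with its SE (3 arrays a group); filled points have an adjusted p under 0.05 and a star marks the 16 genes for which the lobes differ. The points run from -1.18 for ventral Derl3 to 0.55 for lateral Syvn1, and for the translocon from -0.45 to -0.018 in ventral and from -0.23 to 0.028 in lateral prostate.

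The 10 measured members with an exact ERSE or ERSE-II match had a median change of -0.25 in ventral and 0.13 in lateral prostate, with 3 lower in the ventral and 2 higher in the lateral lobe, and the lobes differed for 6 of them. The 30 measured members with a window and no match had medians of -0.21 and -0.045, with 7 lower in ventral prostate, 1 lower in lateral prostate and 7 for which the lobes differed. The 19 measured genes outside the list that hold a match had medians of -0.081 and 0.0019, with 0 called in ventral prostate and 2 higher and 3 lower in lateral prostate by limma. Of 14453 measured genes with a window, 456 fell and 836 rose in ventral knockout, and 477 fell and 239 rose in lateral prostate. For 402 of them the ventral change was called below the lateral change, and for 935 above it. These counts describe the lists, and nothing about binding was measured.

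The rest of the pathway was read from 7 further lists. Of 107 measured genes in these lists, 14 fell and 3 rose in ventral knockout, where 3.2% of all genes fell and 5.88% rose. In lateral prostate 4 fell and 3 rose, where 3.42% of all genes fell and 1.62% rose. The medians of these lists were -0.12 and -0.061. Among other ER folding and redox genes, 4 of 17 fell and 1 rose in ventral knockout. The peptidyl-prolyl isomerase Fkbp11 (-0.995 with an SE of 0.12, limma adjusted p = 0.000248) and the PDI-like Erp29 (-0.52) fell, and Sil1, an exchange factor of BiP, rose (0.36). In lateral prostate Creld2, an ER stress gene whose promoter window also holds a match, rose (0.46 ± 0.10, limma adjusted p = 0.0129), and the oxidase Ero1b, which holds one too, fell (-1.05 ± 0.13, limma adjusted p = 0.000318). Of 12 other ERAD genes 0 fell and 1 rose in ventral knockout (limma, 2 lower and 1 higher at an unadjusted p under 0.05), the lectin Erlec1 (0.30), and 0 passed in lateral prostate (1 lower and 1 higher).

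Of 22 further COPII and cargo receptor genes 3 fell in ventral knockout, the cargo receptors Lman1 (-0.49), Surf4 (-0.30) and Mia3 (-0.29), and 0 rose (limma, 7 lower and 2 higher at an unadjusted p under 0.05). In lateral prostate 2 rose, Mia2 (1.08 ± 0.093, limma adjusted p = 1.08e-05) and Tmed2 (0.36), and 2 fell, among them the coat gene Sec23a (-0.45). Of 12 genes of COPI and retrieval, 2 fell in ventral knockout, the coat subunit Arcn1 (-0.39) and the KDEL receptor Kdelr3 (-0.33), and 0 passed in lateral prostate (limma, 1 lower and 0 higher at an unadjusted p under 0.05). Of 15 genes of glycan transfer and trimming, Ostc (-0.44) and the glucosidase Mogs (-0.34) fell and Tusc3 (0.38) rose in ventral knockout, and 0 passed in lateral prostate (0 lower and 1 higher by limma at an unadjusted p under 0.05). Of 11 genes of the signal recognition particle list, which targets new chains to the ER, 0 passed in either lobe (limma, 6 lower and 1 higher in ventral and 0 in either direction in lateral prostate at an unadjusted p under 0.05).

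Targets of the integrated stress response, the arm of eIF2 alpha and ATF4, come last. Of 18 measured, 3 fell in ventral knockout and 0 rose (limma, 5 lower and 2 higher at an unadjusted p under 0.05), with a median of -0.015. They were Ddit4, an inhibitor of mTORC1 (-0.73 ± 0.10, limma adjusted p = 0.000404), the secreted glycoprotein Stc2 (-0.48) and the asparagine synthetase Asns (-0.41). In lateral prostate 1 fell, the lipoprotein receptor Vldlr (0.35 in ventral and -0.69 in lateral prostate), and the median was -0.065.

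Some lists of cell type markers moved beside these changes, and others had few or no calls. Their counts stand beside 5.88% of all genes higher and 3.2% lower in ventral knockout. In lateral prostate 1.62% of all genes were higher and 3.42% lower. Of 12 smooth muscle genes 7 rose and 0 fell in ventral knockout, and 0 rose and 4 fell in lateral prostate. Their mean signal ranged from 10.30 to 10.58 in ventral wild type and 10.88 to 11.08 in knockout, and from 11.61 to 11.72 in lateral wild type and 11.13 to 11.43 in the arrays labelled knockout. Of 14 fibroblast and matrix genes 10 rose and 0 fell in ventral knockout and 0 rose and 7 fell in lateral prostate, with mean signals of 8.50 to 8.76 and 8.99 to 9.15 in ventral wild type and knockout and of 8.99 to 9.07 and 8.53 to 8.73 in the lateral groups. Smooth muscle genes were bright in all groups, with Acta2 means of 12.56 to 13.10. Both lists were thus higher in ventral knockout, where most members were lower, and lower in the lateral arrays labelled knockout, and their part in the members' changes was not tested. In whole tissue, fewer cells of a type and less RNA per cell cannot be told apart. The widest shift of a marker list in the lateral lobe was that of the seminal vesicle, another secretory tissue: 4 of its 6 secretory genes fell and 0 rose in the arrays labelled knockout, all 6 were lower without overlap, and the median was -2.88. In ventral prostate 0 of the 6 passed (limma, 0 higher and 0 lower at an unadjusted p under 0.05), with a median of -0.062. The part of seminal vesicle RNA in the lateral changes and in the differences between lobes was not tested. Of 13 luminal genes 2 fell in ventral knockout and 0 passed in lateral prostate (limma, 2 lower and 1 higher at an unadjusted p under 0.05), with mean signals of 11.33 to 11.40 against 11.26 to 11.37 in ventral wild type and knockout. Endothelium had 0 of 8 genes called in either lobe. Basal epithelium had 0 of 10 called in ventral prostate (limma, 4 higher and 1 lower at an unadjusted p under 0.05) and 1 lower in lateral prostate. Leukocytes had 1 of 14 higher in ventral knockout and 2 lower in lateral prostate. Neuroendocrine cells had 0 of 6 called in ventral and 2 lower in lateral prostate.

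Plasma cells, which use the same pathway, were read from 10 genes. Of these 0 passed in ventral and 0 in lateral prostate (limma, 1 higher and 0 lower at an unadjusted p under 0.05 in each). Their mean signal was 5.50 to 5.55 in ventral wild type, 5.37 to 5.52 in ventral knockout, 4.61 to 4.73 in lateral wild type and 4.66 to 4.95 in the arrays labelled knockout. The defining factors Pou2af1 and Mzb1 had group means of 2.10 to 3.20 and 4.23 to 4.81, near or below the lower quartile of all probe sets (4.73 in ventral and 4.52 in lateral arrays). Jchain was at 7.29 in ventral wild type and 7.08 in ventral knockout, and at 3.90 and 3.91 in the lateral groups. Of 11 secretory products of the prostate, 7 fell and 0 rose in ventral knockout and 1 fell and 0 rose in lateral prostate, with mean signals of 9.91 to 10.48 against 8.60 to 9.0 in ventral and 11.84 to 12.07 against 11.38 to 11.64 in lateral prostate. The lateral changes of the 11 ran from -3.23 to 0.64 with a median of -0.057, so the lower lateral mean is not a fall shared by the list. Pate4 is among the 11 and also in the seminal vesicle list, where the 6 lateral changes ran from -3.49 to -1.47. The fall of the products was seen beside that of the members in the ventral lobe, and their relation was not tested.

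**Figure D5:**
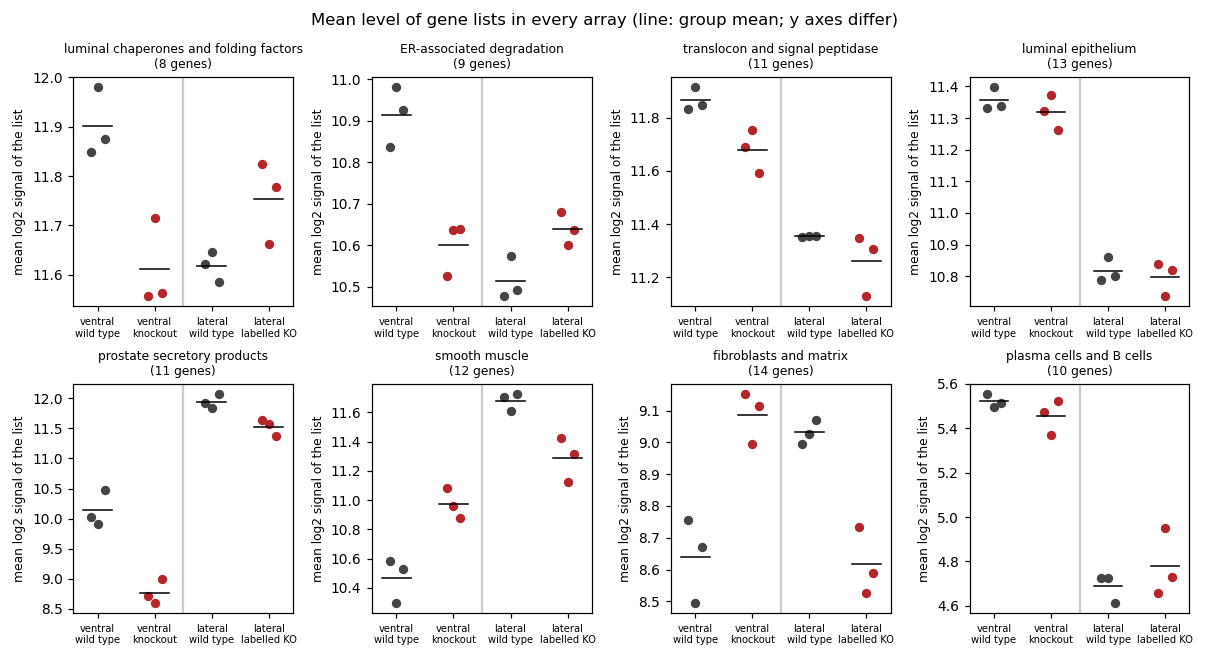
Mean log2 signal of 3 groups of members and 5 marker lists in every array (points) with the group mean (line); wild type is grey, the knockout label red, and the y axes differ. Smooth muscle and fibroblast lists lie higher in ventral knockout and lower in the lateral arrays labelled knockout, the luminal chaperones lie the other way, and the luminal epithelium list overlaps between genotypes in both lobes.

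The lobes themselves were compared in wild type, with the caution that sorted signals matched within each lobe and not across lobes, so lobe and normalization cannot be told apart. As deposited, lateral prostate was lower than ventral in 31 and higher in 6 of 49 members, with 55.8% of all genes lower and 12.3% higher and medians of -0.37 for the members and -0.34 for all genes. After quantile normalization over all arrays 13 members were lower and 19 higher, where 25.7% of all genes were lower and 31.7% higher. With arrays centred on their medians 14 were lower and 12 higher, where 28.9% of all genes were lower and 30.6% higher. The members called the same way in all 3 scalings numbered 18, of which 12 were lower and 6 higher in lateral prostate, where 23.7% of all genes were lower and 12.3% higher. The members' shares thus lay near those of all genes.

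Transcription factors were among the widest of these lobe differences. Creb3l4 was lower in lateral prostate by each scaling, at -2.08 as deposited and -1.58 and -1.72 after quantile normalization and median centring. Creb3l1 was higher, at 1.18 as deposited and 1.66 and 1.54. Xbp1 was lower at -0.92 (-0.41 and -0.56) and Atf6 higher at 0.62 (1.16 and 0.98). The sensor gene Eif2ak3 was lower at -1.16 (-0.64 and -0.80) and Edem3 at -1.06 (-0.52 and -0.70). Sdf2l1, Pdia4, Sel1l and Derl3, which were lower in ventral knockout or differed in their change, were higher in lateral than in ventral wild type by all 3 scalings, at 0.18 to 0.38 as deposited. The highest limma adjusted p among the 18 members was 0.0465 as deposited, 0.0376 after quantile normalization and 0.0403 after centring.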

How the data were processed

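The authors deposited 1 table of log2 signals for 45101 probe sets on 12 arrays, made with Affymetrix Expression Console and RMA per the submitters' processing notes; no version is stated. Sorted values differed between arrays by a median of 0.0493 within ventral, 0.0786 within lateral and 0.388 across all arrays. Symbols came from the platform annotation, updated by Entrez ID to RefSeq GRCm38.p6: 34958 probe sets carried 1 symbol (34754 matched), 932 several and 9211 none listed. The brightest probe set stood for each of 18194 genes, with no filter on dim genes; all probe sets were also fitted together.

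Group means were fitted over all 12 arrays with limma 3.58.1 (R 4.3.3; lmFit, eBayes), with Benjamini-Hochberg adjustment over all genes and a threshold of 0.05. The genotype difference in each lobe, the difference between these and the lobes in wild type were tested. Arrays give no read depth; 3 arrays a group limit the precision. On simulated data the fit recovered 39 of 67 changes of 0.5 log2 and 63 of 67 of 1 log2 in the ventral comparison, with 8 false calls, and 46 and 65 of 67 in the lateral one, with 11.

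All members were named by role, those past the threshold with every array's value, and up to 3 genes per pathway list and lobe by smallest p. The members and lists were chosen with earlier results of these data known. Pate4 is in both the prostate and seminal vesicle product lists. Alternatives covered scaling, probe set choice, a filter on dim genes, the fit, the threshold, a replicate block and arrays left out.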

Additional observations from a re-analysis of the deposited data

Results flagged for a closer look

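For 16 members the genotype difference in ventral prostate differed from that in lateral prostate by the interaction term of the limma fit on the brightest probe sets. These values are the ventral minus the lateral log2 change. The luminal chaperones and partners were Hspa5 at -0.46, Hyou1 at -0.47, Manf at -0.62, Sdf2l1 at -0.68 and Dnajb11 at -0.42. The lectin chaperone Calr was at -0.50 and the isomerase Pdia4 at -0.54. Among sensors and factors Ern2 was at -0.55, Ddit3 at -0.87, Trib3 at -0.66 and Creb3l4 at -0.70. Among ERAD genes Syvn1 was at -0.61, Sel1l at -0.54, Herpud1 at -0.70, Derl3 at -1.57 and Edem1 at -0.53. Med1 itself was not clearly lower in the lateral arrays labelled knockout, and its part in these differences was not tested.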

How the results depend on the processing

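Of 31 member calls followed over 634 repeat fits, 518 kept the call, 116 lost it and 0 turned direction; 9 calls held in each of their fits (Agr2, Creb3l4, Derl3 and Sdf2l1 in ventral prostate, Syvn1 in lateral prostate, and Derl3, Herpud1, Sdf2l1 and Sel1l for the difference between lobes). Percentages in brackets give the share of all genes called in either direction in the same fit. The 12 members called in ventral prostate (9.08%) became 7 with the 6 ventral arrays alone (5.3%). They became 19 with the mean of all probe sets (9.38%) and with an intensity trend and robust fit (10.6%). The count was 5 at an adjusted p under 0.01 (3.66%), 20 under 0.10 (14.9%) and 2 at 1.5-fold or more (3.48%). Without both doubted arrays it was 4 (4.73%). With 1 array left out it ran from 6 (without ventral wild-type array 3, 5.17%) to 14 (without lateral array 2 labelled knockout, 8.72%). The 3 called in lateral prostate (5.03%) became 8 with quantile normalization (5.1%) and without the dimmest 40% of genes (7.91% of those kept). They also became 8 with arrayWeights (7.14%) and at 0.10 (8.29%). The count was 7 with the mean of all probe sets (5.8%) and with the trend (5.84%). It was 0 at 1.5-fold (2.32%) and 1 without both doubted arrays (3.2%). With 1 array left out it ran from 1 (without lateral wild-type array 3, 2.74%) to 5 (without ventral knockout array 3, 6.42%). The 16 that differed between lobes (9.31%) became 5 at 0.01 (3.97%), 8 at 1.5-fold (6.62%) and 4 without both doubted arrays (5.35%). With 1 array left out the count ran from 8 (without lateral wild-type array 3, 6.06%) to 15 (without ventral knockout array 2, 8.98%). The 37 called between lobes in wild type (68.1% of all genes) became 17 at 1.5-fold (37.9% of all genes). The lateral member median of 0.0061 turned to -0.0016 with the mean of all probe sets and -0.0052 without both doubted arrays, and ranged from -0.021 (without lateral array 1 labelled knockout) to 0.056 with 1 array left out. The cause of these changes was not tested. Same-numbered arrays deviated with correlations of -0.0624 to 0.116, so the numbers were not taken as pairs; with a replicate block the counts were 11, 3, 13 and 35. The number of arrays, 3 a group, limits the precision.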
